A study of Homo sapiens with 2 samples.

Results

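JAK1, JAK2, TYK2, STAT3, STAT5A, STAT5B, PTPN6, PTPN11 and SOCS3 are 9 genes that carry the signal of cytokine receptors to the nucleus or end it. They were chosen by name, with earlier results of these data known, from 19974 protein-coding genes on chromosomes 1 to 22 and X. They were described by where peaks lay around them in a list deposited with a chromatin precipitation (ChIP) experiment on tagged ERG. ERG is an ETS-family transcription factor. The cells were F36P, a human erythroleukaemia line. One library came from cells given the MSCV-PIG-AM-ERG retroviral vector, in which ERG is joined to an AM tag and driven by the vector rather than by its own gene (AM-ERG, labelled ERG overexpression). The other came from cells given the empty MSCV-PIG vector (Vector, labelled WT). Both cultures went through 4 days of puromycin (1 µg/ml), and an antibody to the tag was used on the chromatin of both, Vector cells having no tagged protein for it to bind by design. Each was 1 library of 1 cell line, so no value below has a replicate error, AM-ERG and Vector could not be compared by a test, and the ranges given as intervals cover counting error only. The deposited data analysed here were 1 list of 1645 peaks, of which 1564 lay on chromosomes 1 to 22 and X. The sources used here do not say on which library they were called or against what.

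Janus kinases (JAK1, JAK2 and TYK2) sit on the inner tails of cytokine receptors and are switched on when a ligand draws the receptor chains together. They phosphorylate the STAT proteins, which then enter the nucleus and act as transcription factors. JAK2 and STAT5, the product of the paired genes STAT5A and STAT5B, carry the erythropoietin signal in red cell precursors, while STAT3 serves the receptors of the interleukin-6 family, among others. PTPN6 encodes SHP-1, a phosphatase that ends erythropoietin signalling. PTPN11 encodes SHP-2, a related phosphatase that passes signals on to the RAS pathway. SOCS3 is itself switched on by STAT3 and binds receptors and JAKs to shut them down.

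A gene was counted as having a peak where a summit, the highest point of a peak, lay in the annotated gene or within 10 kb of it. By that measure 5 of the 9 genes had a peak, namely JAK1, JAK2, STAT3, PTPN6 and PTPN11, and among all protein-coding genes the share was 9.58%. PTPN6 and PTPN11 had 2 peaks each and the others 1, which made 7 peaks. TYK2, STAT5A, STAT5B and SOCS3 had none. The farthest summit counted was 9469 bp from PTPN11, and the nearest not counted were 17.2 kb from TYK2 and 17.7 kb from SOCS3. By length, 7.81% of protein-coding genes under 10 kb had a peak, 11.4% of those of 10 to 50 kb, 9.70% of those of 50 to 100 kb and 8.15% of those of 100 kb or more. Among the members these classes held 0 of 1, 1 of 3, 2 of 3 and 2 of 2 genes with a peak, the longest being JAK1 (235 kb) and JAK2 (146 kb).

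The sequence at annotated starts was examined for the letters that ETS factors are known to bind. RefSeq promoter windows of 300 bases (250 before the start and 50 after it, GRCh38.p14, read along the gene) were at hand for 8 of the 9 genes, 17 windows in all, and none for PTPN11. Shown first are 2 of the 3 windows on which a peak of these genes lay, at STAT3 (chr17:42388393-42388692, minus strand) and at the second of the 4 JAK2 starts (chr9:4984836-4985135, plus strand). Next come the 2 windows that frame the JAK1 result, at its innermost start beside the peak (chr1:64966500-64966799, minus strand) and at its outermost start without one (chr1:65067697-65067996, minus strand). Last are the SOCS3 window with most ETS letters and no peak (chr17:78360876-78361175, minus strand) and the RPL6 window under the stronger peak counted for PTPN11 (chr12:112409236-112409535, minus strand). Capitals mark GGAA, or TTCC where it is on the other strand, lengthened to CCGGAA or TTCCGG where the neighbouring letters allow.
STAT3: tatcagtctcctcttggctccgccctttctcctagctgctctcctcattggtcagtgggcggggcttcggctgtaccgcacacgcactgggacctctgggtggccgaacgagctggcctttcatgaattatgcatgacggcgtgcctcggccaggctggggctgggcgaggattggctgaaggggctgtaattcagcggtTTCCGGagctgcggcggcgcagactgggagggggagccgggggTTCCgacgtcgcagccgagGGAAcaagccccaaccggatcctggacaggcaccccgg
JAK2, second start: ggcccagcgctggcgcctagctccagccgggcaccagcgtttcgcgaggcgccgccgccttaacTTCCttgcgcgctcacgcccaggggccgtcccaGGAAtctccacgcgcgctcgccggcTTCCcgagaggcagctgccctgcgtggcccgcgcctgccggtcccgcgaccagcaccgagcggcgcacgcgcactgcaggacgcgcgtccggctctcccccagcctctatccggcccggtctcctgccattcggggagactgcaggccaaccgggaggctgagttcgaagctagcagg
JAK1, innermost start: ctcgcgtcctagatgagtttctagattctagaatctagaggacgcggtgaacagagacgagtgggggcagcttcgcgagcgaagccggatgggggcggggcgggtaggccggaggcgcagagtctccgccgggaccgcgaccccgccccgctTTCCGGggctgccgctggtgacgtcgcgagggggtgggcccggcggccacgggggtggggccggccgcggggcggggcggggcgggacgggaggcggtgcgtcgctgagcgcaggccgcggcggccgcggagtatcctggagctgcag
JAK1, outermost start: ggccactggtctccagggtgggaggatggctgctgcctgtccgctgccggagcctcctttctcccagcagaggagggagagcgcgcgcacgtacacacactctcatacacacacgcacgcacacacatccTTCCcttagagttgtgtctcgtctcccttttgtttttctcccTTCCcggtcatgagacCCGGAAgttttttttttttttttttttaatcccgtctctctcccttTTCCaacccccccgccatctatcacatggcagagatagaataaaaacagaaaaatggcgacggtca
SOCS3: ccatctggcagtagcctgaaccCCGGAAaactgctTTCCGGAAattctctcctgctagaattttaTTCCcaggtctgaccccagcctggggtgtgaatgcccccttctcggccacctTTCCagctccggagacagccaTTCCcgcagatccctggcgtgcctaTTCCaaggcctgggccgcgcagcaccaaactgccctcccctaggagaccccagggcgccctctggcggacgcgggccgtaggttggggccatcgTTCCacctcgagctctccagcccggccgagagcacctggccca
RPL6: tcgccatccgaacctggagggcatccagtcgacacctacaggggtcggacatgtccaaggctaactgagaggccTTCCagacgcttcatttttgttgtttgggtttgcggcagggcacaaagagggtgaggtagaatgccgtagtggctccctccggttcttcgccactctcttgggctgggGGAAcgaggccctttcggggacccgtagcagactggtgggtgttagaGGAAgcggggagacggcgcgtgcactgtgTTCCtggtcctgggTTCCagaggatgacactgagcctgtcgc

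JAK1, which pairs with many interferon and interleukin receptors, had 1 peak deep inside the gene (chr1:64966046-64966331). Its summit was 101.6 kb from the outer end of the gene but only 358 bp downstream of the innermost of the 3 annotated JAK1 starts, and 745 bp downstream of the middle one. The pileup, the number of fragments that covered the summit, was 19 over a local background of 3.06 fragments. The authors' fold enrichment was 4.92 (95% exact Poisson interval of the pileup with the background held fixed, 3.06 to 7.55) and the −log10 q was 5.75. That is a middling peak, 663rd of 1564 by fold and 791st by significance, and at 286 bp a narrow one, where the median width was 390 bp. No peak lay at the outermost start.

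JAK2, the kinase bound to the erythropoietin receptor, had 1 peak between its outermost and second annotated starts, covering neither (chr9:4984681-4985079). The summit was 492 bp downstream of the outermost start, 204 bp upstream of the second and 390 bp upstream of the third, and the remaining start, 56650 bp from the summit, had none. The pileup of 48 fragments was the highest among the 7 peaks, and so was the local background, 13.6 fragments, or 3.86 times the median of all peaks. The fold of 3.36 (2.49 to 4.43) was therefore in the lower part of the list, 1324th of 1564, while by significance the peak was 479th (−log10 q 8.56). The raised background was shared by the neighbourhood: the other 7 peaks within 5 Mb had a median background of 9.86 fragments, 2.80 times the median of the list, and a median fold of 3.68. Its part in the JAK2 peak was not tested.

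TYK2, the JAK of the type I interferon and interleukin-12 receptors, had no counted peak. The nearest summit was 17.2 kb beyond its 3′ end and 47.2 kb from its start. That peak (chr19:10333164-10333457) lay 199 bp inside an end of RAVER1, which encodes an RNA-binding protein, and 446 bp from ICAM3, an adhesion molecule gene. It had a pileup of 22 fragments on a background of 7.04 and a fold of 2.86 (1.84 to 4.27), 1445th in the list. The other 31 peaks within 5 Mb had the same median background, 7.04 fragments.

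STAT3 had the peak closest to an annotated start among the genes with a known one (chr17:42387815-42388504), with its summit 154 bp downstream of the only start in the table. The pileup was 23 fragments over a background of 2.82, the fold 6.29 (4.08 to 9.31) and the −log10 q 9.63. It stood 288th by fold, so that 81.6% of peaks were below it, and at 690 bp it was the widest of the 7. Its background was below the 6.80 fragments that was the median of the other 14 peaks within 5 Mb.

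STAT5A and STAT5B lie beside STAT3. STAT5B, STAT5A and STAT3 together span 189 kb of chromosome 17, with 1380 bp between STAT5A and STAT3 and an overlap of 932 bp between the annotated ends of STAT5B and STAT5A. In all of that stretch the list held only the peak at the STAT3 start, which was thus also the nearest to the others, 76.3 kb from STAT5A and 99.9 kb from STAT5B. From the 4 annotated starts of the STAT5 genes the nearest summit was between 99.8 and 112 kb away. How weak a site the list could have shown there was not measured, and a missing peak shows only that none passed the authors' threshold.

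**Figure D1:**
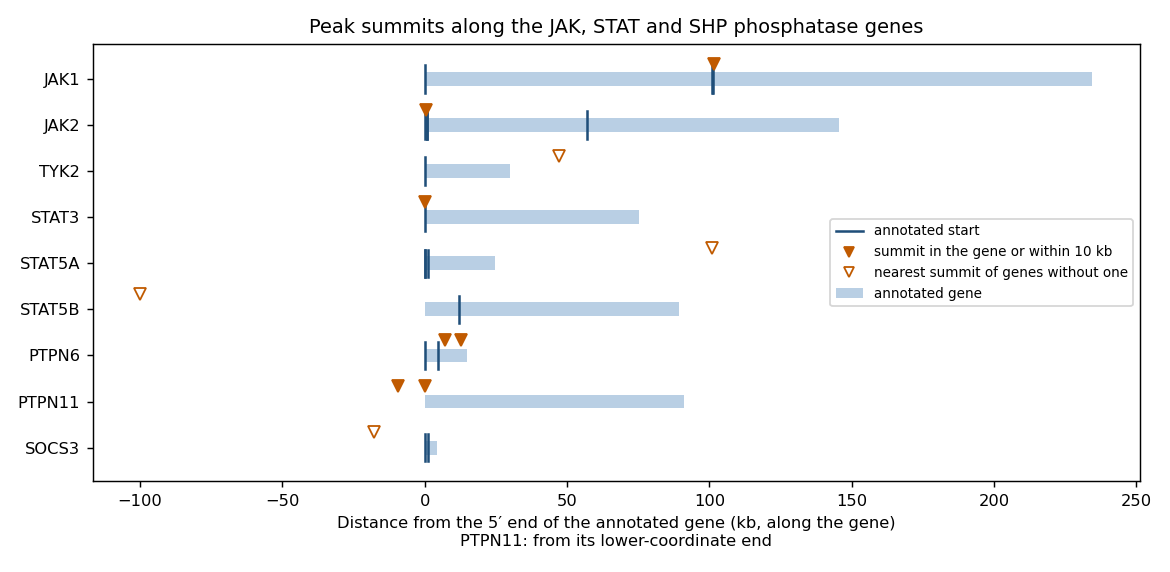
Each row is a gene, drawn from its 5′ end at 0 (PTPN11 from its lower-coordinate end, since no strand was at hand for it); bars are annotated genes, vertical lines annotated starts, filled triangles the 7 counted summits and open triangles the nearest summit of a gene without one. The JAK1 summit sits at the inner starts, 101.6 kb into the gene, the JAK2 and STAT3 summits at the 5′ end, and the STAT5A and STAT5B rows show the same STAT3 summit.

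PTPN6, the gene of SHP-1, held the strongest of the 7 peaks, in its 3′ part (chr12:6958990-6959519). The summit was 2032 bp before the 3′ end of the gene and 7928 bp downstream of the nearer of its 2 annotated starts, and no other protein-coding gene was within 6 kb. The pileup was 29 fragments over 2.30, the fold 9.10 (6.19 to 12.9) and the −log10 q 17.5, which placed it 57th of 1564 by fold and 132nd by significance. A weaker peak (chr12:6953760-6954240) lay 5450 bp before it and 2478 bp downstream of the nearer start, with a pileup of 14 over 3.52 and a fold of 3.32 (1.91 to 5.42). The intervals of the 2 folds, with the backgrounds held fixed, did not overlap. Those of the pileups did (19.4 to 41.6 and 7.65 to 23.5 fragments). The weaker peak was close to the authors' threshold, with a q of 0.0152 where the largest q in the list was 0.0474, and 1495th by significance.

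PTPN11, the gene of SHP-2, had 2 peaks of similar height and different fold. The stronger by fold (chr12:112409222-112409608) was 23 fragments high at the summit, with a fold of 7.45 (4.84 to 11.0), and the weaker (chr12:112418819-112419498) was 25 fragments high, with a fold of 3.23 (2.14 to 4.71). The local backgrounds were 2.22 and 7.04 fragments, so the difference in fold lay in the background and not in the pileup. The fold intervals did not overlap, but they hold these backgrounds fixed and carry no error of them. The pileup intervals did overlap (14.6 to 34.5 and 16.2 to 36.9 fragments). The peak at PTPN11 itself was the weaker, 12 bp outside the lower-coordinate end of the gene and 100 bp from an annotated end of its neighbour RPL6, which encodes a protein of the large ribosomal subunit. The stronger was 9469 bp outside PTPN11, within the annotated extent of RPL6 and 193 bp upstream of an RPL6 start. It counted for PTPN11 only because the limit was 10 kb.

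SOCS3 had no counted peak. The nearest (chr17:78378422-78378873) was 17.7 kb upstream of its outer start, and lay 33 bp upstream of the start of PGS1, an enzyme gene of mitochondrial lipid synthesis. It had a pileup of 35 fragments over 6.34, a fold of 4.91 (3.46 to 6.77) and a −log10 q of 10.7.

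**Figure D2:**
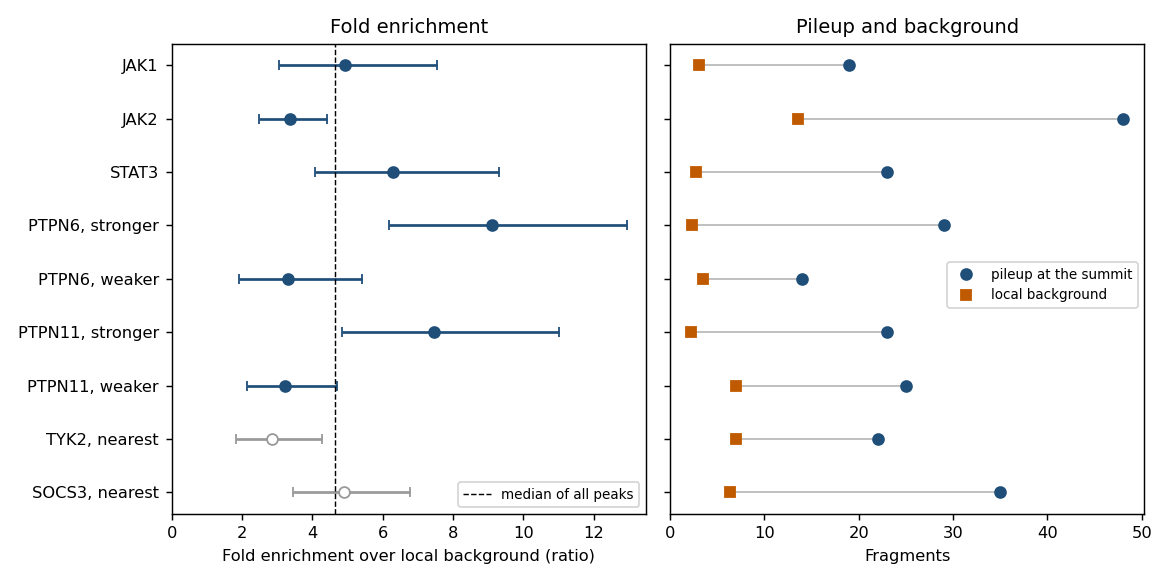
Left, the authors' fold enrichment of each peak with the 95% exact Poisson interval of its pileup (background held fixed; counting error only), and the median of the 1564 peaks as a dashed line; open circles are the nearest peaks of TYK2 and SOCS3, which were not counted. Right, the pileup (circles) and local background (squares) behind each fold, in fragments: JAK2 has the highest of both, and the PTPN11 peaks have pileups of 23 and 25 on backgrounds of 2.22 and 7.04.

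Side by side, the 7 peaks had a median fold of 4.92 (3.23 to 9.10) and a median pileup of 23 fragments (14 to 48), against 4.66 (1.27 to 23.3) and 21 (10 to 3977) for all 1564 peaks. Their order by fold began with PTPN6, PTPN11 and STAT3, and then JAK1, and the intervals of these 4 overlapped one another. Their order by pileup began with JAK2, followed by the stronger PTPN6 peak and the weaker PTPN11 peak. JAK2 thus came first by pileup and below JAK1 by fold. By excess over background it was also first, with 34.4 fragments, against 26.7 at the stronger PTPN6 peak, 20.8 and 18.0 at PTPN11, 20.2 at STAT3, 15.9 at JAK1 and 10.5 at the weaker PTPN6 peak.

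**Figure D3:**
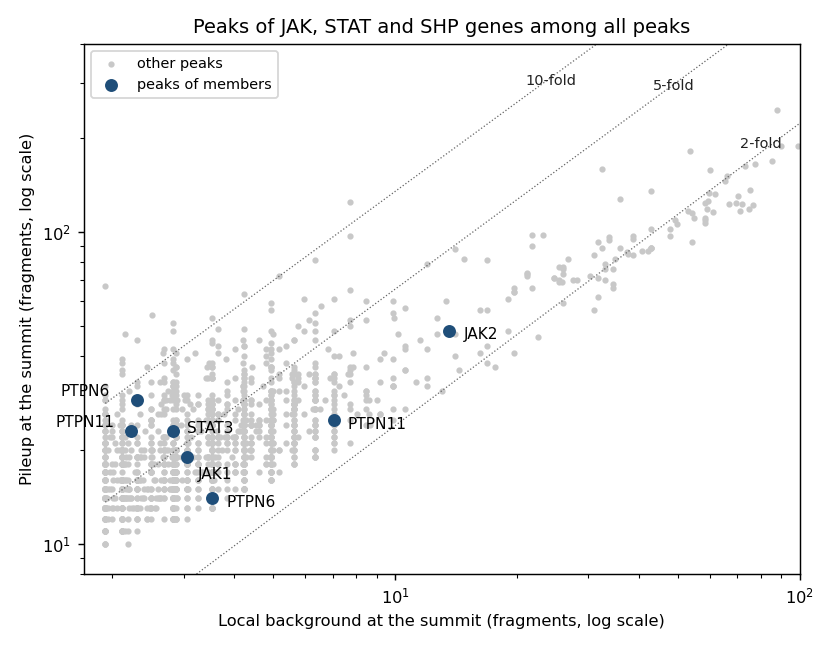
Every peak on chromosomes 1 to 22 and X by local background and pileup at the summit, in fragments on log axes, with the 7 peaks of JAK1, JAK2, STAT3, PTPN6 and PTPN11 in blue and dotted lines of equal fold; 19 peaks lie beyond the axes. JAK2 lies far to the right, on a background of 13.6 fragments, and the stronger PTPN6 peak lies nearest to the line of 10-fold.

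Measured from annotated starts, which the gene's ends do not always mark, a summit lay within 1 kb of a start for 3 of the 8 genes with a known start (JAK1, JAK2 and STAT3), and for 6.41% of the 15812 protein-coding genes with one. PTPN6 was not among them, since its peaks were 2478 and 7928 bp from the nearer start. Of 1484 peaks on the chromosomes with windows, 880 (59.3%) lay within 1 kb of a start of a protein-coding gene, so the PTPN6 peaks belong to the smaller share of the list.

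CCGGAA, the ETS core with its usual flank, searched on both strands, stood in 4 of the 17 windows of these genes. These windows belonged to 3 of the 8 genes, and the matching share over all genes was not computed. Of the 22132 windows of all protein-coding genes at hand 21.2% held it, and of the 921 windows on which a peak lay 62.2% did. At STAT3 it stood 50 bp upstream of the start, inside the peak and 201 bp from the summit. At JAK1 it stood 98 bp upstream of the innermost start, in a window that ended 169 bp short of the peak, and once more 62 bp upstream of the outermost start, 101.6 kb from the nearest summit. The SOCS3 window printed above held 3 matches, 2 of which overlap in the letters TTCCGGAA, and the nearest summit was 17.7 kb away. Neither JAK2 window under the peak held it, nor did the RPL6 window. Of the 4 windows with CCGGAA only the STAT3 window lay under a peak, where 573 of all 4682 windows with it did. The JAK2 windows under a peak shared the same peak and overlapped each other. Counts this small do not set these genes apart.

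The shorter core GGAA, on either strand, was in 16 of the 17 windows and in 95.2% of all windows, so it separates little. Of the 10 matches in the JAK2 windows 3 lay inside the peak, 19, 52 and 77 bp from its summit. The window at TYK2 was the only one of the 17 without a match. The STAT element TTCNNNGAA was in none of the 17 windows and in 6.79% of all. AGATAA, the letters bound by GATA factors, was in 1 of them, upstream of the second PTPN6 start, and in 7.88% of all. A match is a run of letters and not a measured site, and the sequence under most of the peaks lay outside the windows and was not examined.

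**Figure D4:**
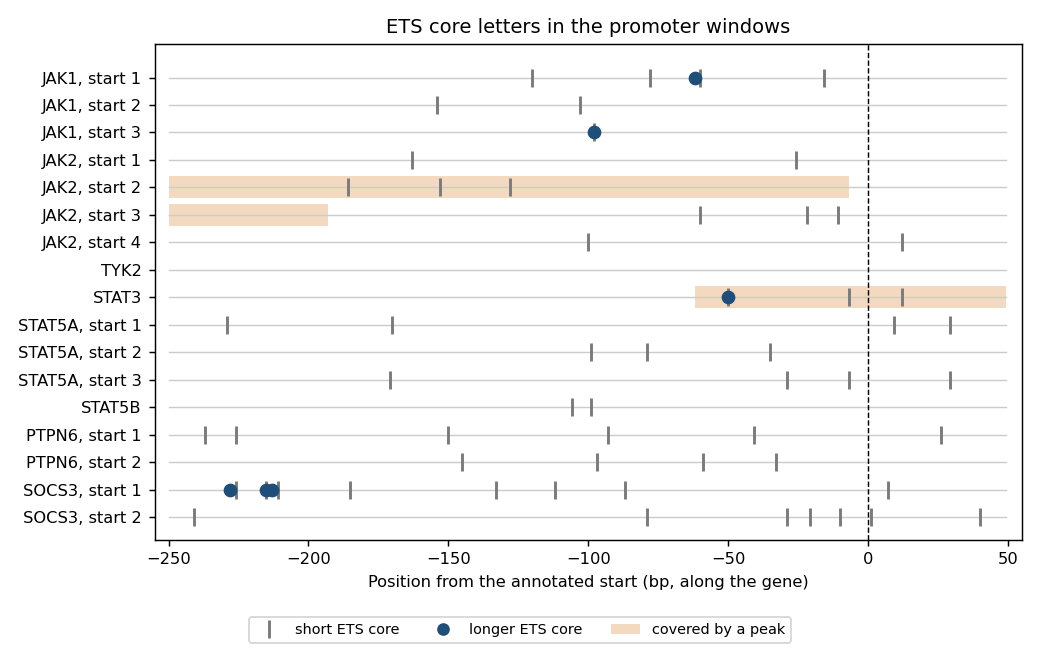
Rows are the 17 promoter windows, numbered along each gene from its outermost start, and the axis is the position from the start in bp; ticks are GGAA on either strand, filled circles CCGGAA, and shading the part of a window covered by a peak. STAT3 is the one window with a filled circle under shading, and the SOCS3 circles stand in a window with none.

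The other genes of the pathway were listed by role from general knowledge, also with earlier results of these data known. Of 64 such genes 13 (20.3%) had a counted peak, where the share of all protein-coding genes was 9.58%, and their most significant peaks had a median fold of 5.17 (3.14 to 11.2). By role these were 2 of 18 receptor genes, 2 of 9 ligand genes, 3 of the 5 other JAK and STAT genes, none of 3 other phosphatase genes, 2 of 13 other inhibitors, 2 of 8 adaptors and coupled kinases and 2 of 8 target genes. For 4 of the 13 the most significant peak lay within 1 kb of an end or start of another protein-coding gene, as it did for PTPN11 among the 5.

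Among the other STAT genes, STAT4, which serves the interleukin-12 receptor, had 1 counted peak of 8.05 fold (5.27 to 11.8), 24 fragments high, 9302 bp outside the gene. STAT6, the interleukin-4 STAT, had a peak of 5.14 fold (3.02 to 8.27) 385 bp outside the gene. The JAK and STAT genes that serve erythropoietin were divided, with a peak at JAK2 and none near STAT5A or STAT5B.

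The receptor genes with a peak were EPOR and IL3RA, and the ligand genes THPO and OSM. EPOR, the erythropoietin receptor, had 2 peaks, and the stronger was 97 fragments high on a background of 7.74, with a fold of 11.2 (9.11 to 13.6), 59 bp downstream of the start, above the 7 peaks of the JAK, STAT and SHP genes in height and fold. The peak counted for IL3RA, the interleukin-3 receptor alpha chain, had a fold of 5.17 but was 9176 bp away at the start of SLC25A6, and that counted for THPO, the gene of thrombopoietin, had a fold of 5.30 and was 8798 bp away at a start of POLR2H. OSM, which encodes the cytokine oncostatin M, had a peak of 4.21 fold 689 bp outside the gene. CSF2RB, the common beta chain of the receptors of GM-CSF and interleukin-3, had its nearest peak at 290 kb.

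Among inhibitors, CISH, a STAT5 target of the SOCS family, was the only one of 8 genes of that family with a peak. It had a fold of 6.20 (4.02 to 9.17), with the summit 201 bp upstream of the CISH start and 98 bp downstream of a start of MAPKAPK3. SH2B3, which encodes the JAK2 inhibitor LNK, had a peak of 3.73 fold (2.22 to 5.92). The summit was inside the gene, 380 bp from its 5′ end and 813 bp upstream of the nearest start with a promoter window. None of the 4 PIAS genes had one. Where 9.58% of all protein-coding genes had a peak, counts in families this small do not set them apart. Of the other phosphatases, PTPN1 and PTPN2, which act on JAKs, had their nearest peaks at 106 and 408 kb.

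Downstream, BCL2L1, a STAT5 target that encodes the survival protein BCL-XL, had 2 peaks, the stronger of 9.99 fold (6.89 to 14.1) 166 bp downstream of a start. CCND3, which encodes cyclin D3, had a peak 18 fragments high 182 bp downstream of a start. The adaptor gene GRB2 had a peak of 4.45 fold, 20.6 kb from its nearer end and 81 bp from the pseudogene RPL36AP7. It was 12 fragments high on a background of 1.92, about the lowest in the list, and 1291st by significance. The peak of SHC1, another adaptor, was shared with a start of CKS1B. PIM1 and PIM2, kinase genes that STAT5 switches on, had none, and their nearest peaks were 644 and 161 kb away. The 51 pathway genes without a peak had their nearest at a median of 460 kb.

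**Figure D5:**
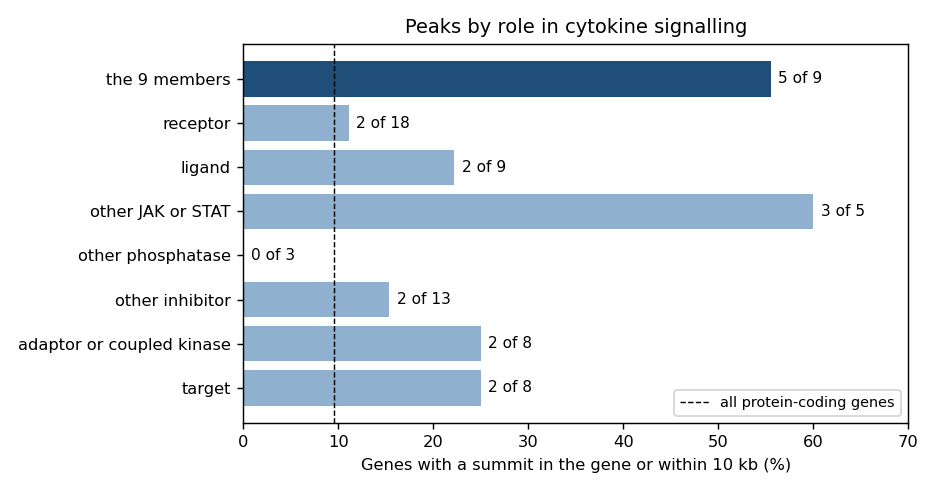
Bars are the share of genes in each role that hold a summit or have one inside the 10 kb limit, with the counts beside them, and the dashed line is the 9.58% of all protein-coding genes. The 9 members (5 of 9) and the other JAK and STAT genes (3 of 5) stand above the receptors (2 of 18) and the other inhibitors (2 of 13); no test was made of these counts.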

How the data were processed

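AM-tag chromatin precipitates of F36P cells with AM-ERG or the empty vector, 1 library each, were sequenced. Per the labels' protocols, fixed cells were used and 10 µg of chromatin, digested with micrococcal nuclease for 20 minutes, entered each precipitation. Bowtie2, MACS2, deepTools and the build hg38 are named, per the submitters' processing notes, without version or setting. The deposited list holds, for each peak, a score, a fold enrichment (a ratio over local background), a −log10 p-value, a −log10 q-value and a summit offset in bp, all the authors' values. The score was not used. Read depth per library is unknown.

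The pileup and local background were computed from the deposited fold (pileup + 1 over background + 1) and p-value (Poisson tail), which returned the deposited value for all 1645 peaks within 0.001 in log10 p. The step was also run on peaks simulated with the same formulas, which checks the calculation and not how the list was made. Genes and promoter windows were RefSeq on GRCh38.p14. All 9 members and all 64 other pathway genes were matched in the gene table, and windows of chromosome 8 were not used here. Motif letters were searched on both strands, overlapping matches counted. The 9 genes, the lists and the named genes (all members, genes sharing their peaks, and pathway genes with a peak, with values for the 12 most significant) were chosen with earlier results of these data known. PIM1, PIM2, PTPN1, PTPN2 and CSF2RB were named after their values were seen, and some genes of the pathway list are not reported here. No test was made. Alternatives covered distance, threshold, overlap, background and promoter window. The software was SciPy 1.17.1, numpy 2.4.6 and pandas 2.3.3 under Python 3.11.15, with figures from matplotlib 3.10.9.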

Additional observations from a re-analysis of the deposited data

How the results depend on the processing

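No paired analysis was possible because there is a single library of AM-ERG cells and a single one of Vector cells. The count of 5 of 9 genes was 5 within 1 kb or 5 kb, with q at or below 0.01 or with any base of the peak, 7 within 50 kb (adding TYK2 and SOCS3, as a wider window implies), 4 in the upper 50% by q (without JAK1) and 4 without peaks of more than 2 times the median background (without JAK2). The shares of all protein-coding genes were 7.23% within 1 kb, 17.7% within 50 kb, 999 of 19974 in the upper 50% and 9.14% without raised background. Counting only summits within 1 kb of an annotated start, a setting chosen after seeing the data, gave 3 of 8 genes and, for the other pathway genes, 6 of 49. Those pathway genes numbered 7 in the upper 50% by q and 10 to 16 in the remaining settings; fewer peaks or a smaller window lower a count by construction. The median fold over the 5 genes was 6.29, and 4.92 when the peak nearest to an end of the gene stood for it, which changed PTPN11 to 3.23 and no other gene. CCGGAA was in windows of 3 genes, and of 2 in the 150 bases nearest the start (without SOCS3). By window that was 4 and 3 of 17, where 21.2% and 14.6% of all windows held it. The limit of 7.04 fragments for raised background fell on a step that the weaker PTPN11 peak shares, and PTPN11 is counted with or without it. The depth behind each peak was 14 to 48 fragments, which leaves fold intervals wide.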
